A study of Homo sapiens with 7 samples.

Results

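The genes that govern passage from G1 into S phase were followed after siRNA against GLUT2 in HK-2, a human cell line immortalised from the epithelium of the kidney's proximal tubule. They were the rows of the count table whose symbol was on a list of 38 cyclins, cyclin-dependent kinases, inhibitors, RB family and E2F genes. All 38 were found, once each, among 33694 rows, and all 38 were among the 12404 genes with enough counts to be tested. The 4 libraries of the control group (replicates 1 to 4) came from cells transfected with a scrambled siRNA and labelled WT. The 3 siGLUT2 libraries (replicates 2 to 4) came from cells transfected with siRNA against GLUT2, the glucose transporter encoded by SLC2A2, and labelled GLUT2-KD. Both groups received 50 nM siRNA with the same lipid reagent and were lysed after 96 h. Every library is from the same cell line, which was made with papillomavirus E6 and E7 genes, and the E7 protein binds the RB family. The labels call the libraries biological replicates, and p-values measure the spread between them.

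In G1, D cyclins bound to CDK4 or CDK6, and later E cyclins bound to CDK2, phosphorylate the RB family proteins RB1, RBL1 and RBL2. Phosphorylated RB proteins release E2F factors, which bind DNA with a DP partner and drive genes of DNA synthesis, several E2F genes and E cyclins among them. INK4 inhibitors block CDK4 and CDK6, Cip/Kip inhibitors act mainly on CDK2 complexes, and SKP2 with CKS1B marks the inhibitor p27 for destruction. Unless stated otherwise, levels are CPM, a gene's count divided by the TMM-scaled library size and multiplied by 1000000, given in the order of the replicate numbers or as mean ± SD (n = 4 scrambled, n = 3 siGLUT2). A fold change is the log2 of siGLUT2 over scrambled ± SE, tested with the quasi-likelihood method of edgeR, and each p was adjusted over all tested genes and read at a threshold of 0.05. Because reads were counted at transcript ends in bulk RNA, neither splice forms nor proteins were measured. A smaller share of cells in a cycle phase and less RNA per cell cannot be told apart.

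SLC2A2 had 13, 13, 7 and 17 counts in the 4 scrambled libraries and 0 in all 3 siGLUT2 libraries (adjusted p = 0.0085, and 0.0577 with a replicate block). Total counts ran from 5654957 to 8455963 per library. The siGLUT2 libraries held fewer genes with a count (13433 to 13891 against 14844 to 15036) and more mitochondrial counts (7.04 to 7.56% against 4.91 to 5.53%), and the part of these differences in the results was not tested. Among the markers of the labelled tubule cells, PAX8 was at 192 and 176 CPM, while LRP2 and SLC22A6 were at 0 in every library. All 4 endothelial markers and 4 of 5 leukocyte markers were at 0, and the other one, CD68, rose from 14.99 to 25.9 CPM (adjusted p = 0.00853). The 6 fibroblast markers summed to 11.8 to 14.99 CPM in scrambled and 37.9 to 46.2 CPM in siGLUT2 libraries. Of the 3 of them tested 2 rose (66.7%, against 13.9% of all genes). LUM went from 1.86 to 23.9 CPM and COL1A1 from 9.40 to 16.6 CPM, and DCN, COL1A2 and PDGFRA were near 0. Of 6 epithelial markers 4 fell (66.7%, against 14.4% of all genes), which were the keratins KRT7, KRT8, KRT18 and KRT19. CDH1 did not pass (adjusted p = 0.118), and neither did EPCAM, at 98.6 and 99.4 CPM (adjusted p = 0.965). The summed level of the 6 went from 1128 to 1240 CPM down to 635 to 767 CPM. The part of these marker lists in the results below was not tested.

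Of the 38 G1 to S genes, 20 (52.6%) changed after siGLUT2, where 28.3% of all tested genes did. Lower levels were called for 13 of them (34.2%, against a background of 14.4%) and higher levels for 7 (18.4%, against 13.9%). At least 2-fold changes were called for 11 members, against 8.3% of all genes. CPM of the groups did not overlap for 20 members, against 35.1% of all genes. The median fold change of the members was -0.20 and that of all tested genes was -0.0029. Without scrambled replicate 4 the number of members called lower was 8, and the number called higher was still 7. In 5 of the 13 roles, members were called on both sides: a D cyclin, a kinase, an INK4 inhibitor, a Cip/Kip inhibitor and an atypical E2F rose while another of the same role fell. Among the kinases these calls held under every setting. In each of the other roles a call on 1 side or both was lost with some library left out (CCND3, CDKN2B, CDKN2C, CDKN1B and E2F8).

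**Figure D1:**
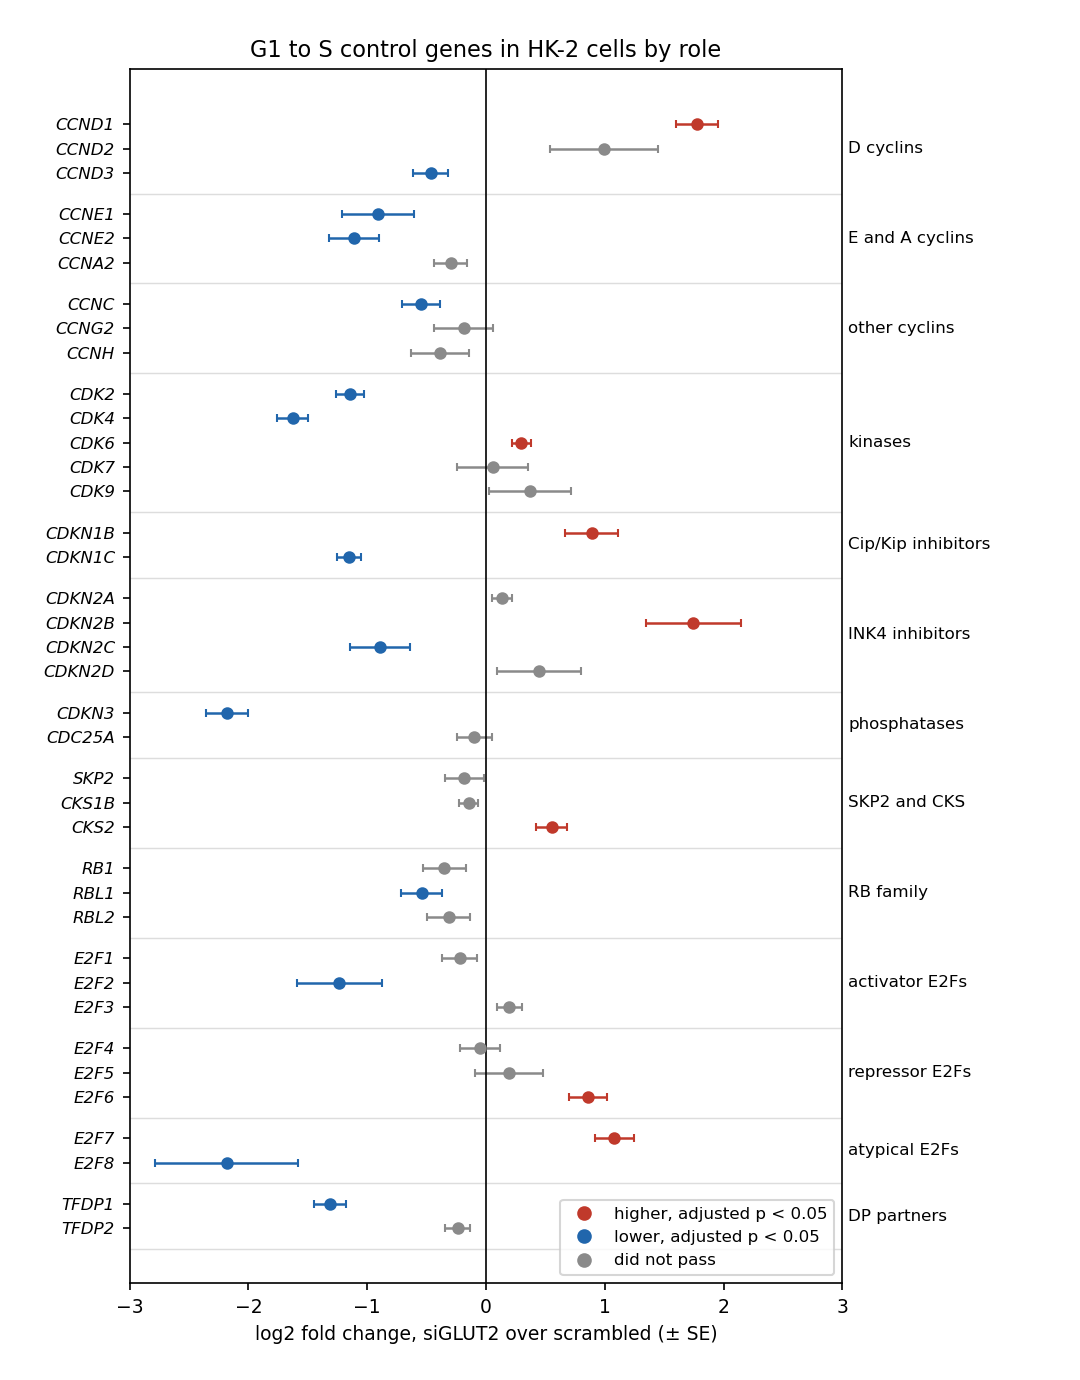
Log2 fold change (x axis, siGLUT2 over scrambled, bars ± SE) of the 38 genes, grouped by role; red marks the 7 called higher, blue the 13 called lower and grey the 18 that did not pass. CCND1 at 1.78 and CDKN2B at 1.75 lie farthest to the right, and CDKN3 and E2F8, both at -2.18, farthest to the left.

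The D cyclins, which sense growth signals and activate CDK4 and CDK6, moved in opposite directions. CCND1 (cyclin D1, chromosome 11, 69641087 to 69654474 on GRCh38) was at 21.0, 43.9, 33.1 and 27.5 CPM in the scrambled and at 110.3, 100.4 and 114 CPM in the siGLUT2 libraries. Every siGLUT2 library was above every scrambled library, and CCND1 rose 3.43-fold (1.78 ± 0.18, adjusted p = 1.25e-07). CCND3 (cyclin D3, chromosome 6, 41934933 to 42050357) was at 97.8, 110.3, 108 and 118 CPM and at 56.5, 79.5 and 99.4 CPM. The groups overlapped, since siGLUT2 replicate 4 reached the scrambled range, and the fall of CCND3 was small (-0.47 ± 0.15, adjusted p = 0.0206). It no longer passed when scrambled replicate 2, 3 or 4 was left out (0.0570, 0.0521 and 0.0808) or when siGLUT2 replicate 2 or 3 was (0.0917 and 0.0585). CCND2 (cyclin D2), a low transcript with 133 and 169 counts in the groups, was at 4.47 ± 1.94 and 8.98 ± 5.13 CPM and did not pass (0.99 ± 0.45, adjusted p = 0.109). Without siGLUT2 replicate 3, which lay within the scrambled range, CCND2 passed (adjusted p = 0.0198). The 3 D cyclins together took 122 to 158 CPM in scrambled and 177 to 227 CPM in siGLUT2 libraries.

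The E cyclins, which activate CDK2 at the entry into S phase, were lower. CCNE2 (cyclin E2) was at 32.9, 32.3, 26.7 and 29.6 CPM in scrambled and 12.1, 16.6 and 13.3 CPM in siGLUT2 libraries. These values did not overlap, and CCNE2 fell 2.17-fold (-1.11 ± 0.21, adjusted p = 0.00033). CCNE1 (cyclin E1, chromosome 19, 29811898 to 29824308) was at 21.0, 23.6, 14.4 and 19.2 CPM and at 8.19, 6.48 and 16.6 CPM. Here siGLUT2 replicate 4 lay inside the scrambled range, and the call (-0.91 ± 0.30, adjusted p = 0.0282) was lost without scrambled replicate 1, 2 or 4 (0.0767, 0.103 and 0.0638) and without siGLUT2 replicate 2 or 3 (0.0693 and 0.137). CCNA2 (cyclin A2), the S phase and G2 partner of CDK2 and CDK1, was at 62.4 to 79.4 CPM in scrambled and 49.4 to 59.5 CPM in siGLUT2 libraries. Its values did not overlap, but it did not pass (-0.30 ± 0.14, adjusted p = 0.122).

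Of the cyclins outside this core, CCNC (cyclin C), which pairs with CDK8 in the Mediator kinase module, was at 95.4, 103, 105 and 110.2 CPM and at 96.9, 64.1 and 51.8 CPM. Replicate 2 of siGLUT2 lay with the scrambled libraries and the other two lay below them. CCNC was called lower (-0.55 ± 0.16, adjusted p = 0.0115), and no longer so without siGLUT2 replicate 3 (0.0625) or 4 (0.0557). CCNH (cyclin H), the partner of CDK7 in the CDK-activating kinase, was at 25.8 ± 8.94 and 19.7 ± 1.99 CPM (adjusted p = 0.258). CCNG2 (cyclin G2), an atypical cyclin linked to cell cycle arrest, was at 16.9 ± 3.07 and 14.8 ± 2.38 CPM (adjusted p = 0.628).

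Among the kinases, CDK4 and CDK2 fell and CDK6 rose slightly. CDK4 (chromosome 12, 57747727 to 57756013), which with a D cyclin makes the first phosphorylations of RB1, was at 257, 283, 254 and 271 CPM in scrambled and at 61.7, 106 and 90.1 CPM in siGLUT2 libraries. It fell 3.09-fold with no overlap (-1.63 ± 0.13, adjusted p = 5.9e-09). CDK2 (chromosome 12, 55966769 to 55972784), the partner of cyclins E and A, was at 298, 294, 216 and 254 CPM and at 122, 130.3 and 108 CPM. Its fall was 2.21-fold, with no overlap (-1.15 ± 0.11, adjusted p = 1.34e-07). CDK6 (chromosome 7, 92604921 to 92836594), which shares the D cyclins with CDK4, was at 585, 580.3, 637 and 611 CPM and at 743, 689 and 792 CPM. Each siGLUT2 library was above each scrambled library, although the rise was 1.23-fold (0.30 ± 0.08, adjusted p = 0.0061). CDK7, the catalytic subunit of the CDK-activating kinase and of TFIIH, was at 22.6 ± 7.41 and 23.8 ± 12.9 CPM (adjusted p = 0.911). CDK9, the kinase of the elongation factor P-TEFb, was at 9.47 ± 3.49 and 12.2 ± 4.46 CPM (adjusted p = 0.469).

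The 7-base words GACCTTA and ACCTTAA were picked in an earlier scan of the fold changes of these same libraries against 3' UTR sequence. They are shown here because CDK4, the kinase with the largest fall, carries ACCTTAA. In the longest annotated 3' UTR of GENCODE release 29, either word stood in 7 of the 38 members (18.4%) and in 15.4% of 11174 genes with at least 100 counts. The sites below are from the transcript sequence, with the word in capitals. The site of CDK4 starts at base 604 of a 3' UTR of 1022 bases, and that of RBL1 at base 1689 of 2410. SKP2 and TFDP2 hold further sites, and the CCNE2 site is not shown.
CDK4: tcctgcaaaACCTTAAagactggtt
RBL1: taactgcaaACCTTAAttttggaaa
CDK7: ccagtggaaACCTTAAaggagcaat
SKP2: tttcaagatACCTTAAagagcaaaa
CCNG2: catttcctaGACCTTAaaaaatgtg
TFDP2: tctgaaataGACCTTAaaactgtgc

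Of the 7 holders, CDK4, CCNE2 and RBL1 fell, and CDK7, SKP2, CCNG2 and TFDP2 did not pass. Among all 38 members 34.2% fell, and among all tested genes 14.4%, and 7 holders are too few to set against these shares. Leaving out all 7 holders, 10 of the remaining members were called lower and 7 higher. The part of these words in the fall of CDK4, CCNE2 and RBL1 was not tested, and their choice from these data makes their presence no separate support.

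**Figure D2:**
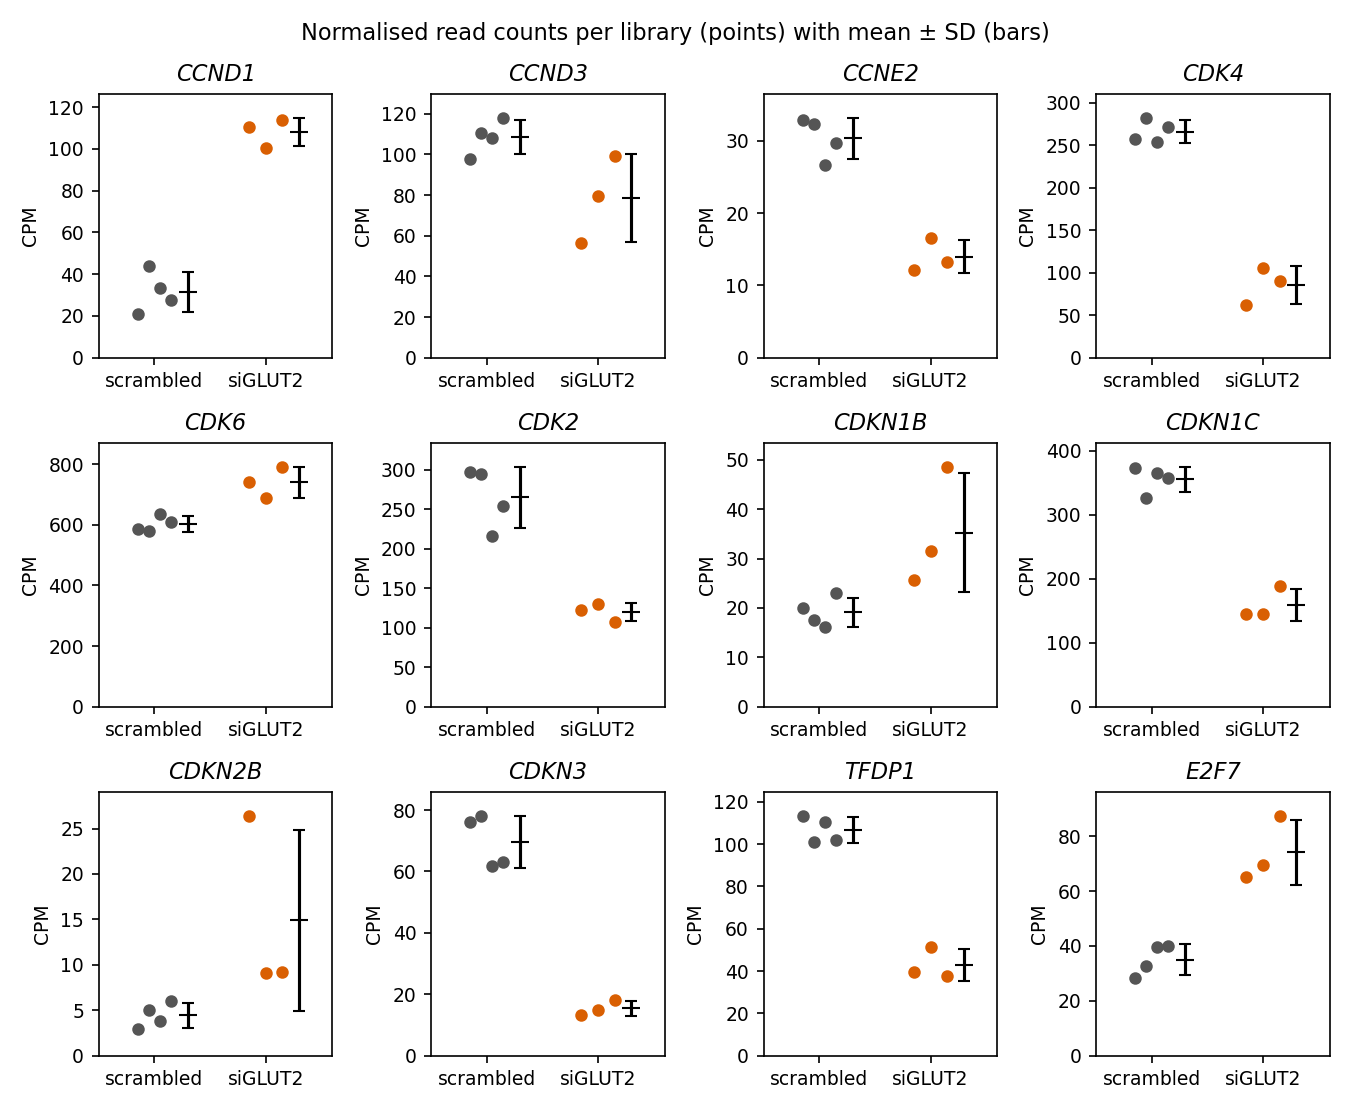
CPM per library (points; grey scrambled, orange siGLUT2) with mean ± SD beside them, for 12 members; each y axis starts at 0 and has its own scale. The groups are apart in every panel but CCND3, and siGLUT2 replicate 2, at 26.4 CPM, stands above the other two libraries of its group for CDKN2B.

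The Cip/Kip inhibitors changed in opposite directions. CDKN1B, which encodes p27 and restrains cyclin E with CDK2, was at 19.9, 17.5, 16.1 and 22.9 CPM in scrambled and 25.6, 31.6 and 48.6 CPM in siGLUT2 libraries. It rose 1.85-fold without overlap (0.89 ± 0.22, adjusted p = 0.0041), and without siGLUT2 replicate 4, the highest library, the rise was 0.58 with an adjusted p of 0.0519. CDKN1C, which encodes the imprinted inhibitor p57 (chromosome 11, 2883213 to 2885773), was at 373, 327, 365 and 357 CPM and at 145, 145 and 188 CPM. It fell 2.23-fold (-1.16 ± 0.10, adjusted p = 2.32e-08), and the groups lay far apart. The sum of both genes was 344 to 393 CPM in scrambled and 171 to 237 CPM in siGLUT2 libraries.

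Of the INK4 inhibitors, which bind CDK4 and CDK6 and keep D cyclins off them, CDKN2B rose, CDKN2C fell and the other two did not pass. CDKN2B, which encodes p15 (chromosome 9, 22002903 to 22009363), was at 2.94, 5.04, 3.79 and 6.00 CPM and at 26.4, 9.08 and 9.23 CPM. All 3 siGLUT2 libraries were above the scrambled range (1.75 ± 0.40, adjusted p = 0.00205), but the size rested on replicate 2, without which it was 1.04 (adjusted p = 0.0662). CDKN2C, which encodes p18 (chromosome 1, 50960745 to 50974633), was at 26.8, 23.3, 24.4 and 19.4 CPM and at 10.2, 10.1 and 17.7 CPM. Its fall was 1.85-fold without overlap (-0.89 ± 0.25, adjusted p = 0.0102, and 0.0505 without siGLUT2 replicate 3). CDKN2A, whose p16 and ARF transcripts share their 3' end and were counted together, was at 473 to 541 CPM in scrambled and 514 to 587 CPM in siGLUT2 libraries (0.13 ± 0.08, adjusted p = 0.247). CDKN2D, which encodes p19, was at 8.69 ± 2.64 and 11.8 ± 5.04 CPM (adjusted p = 0.373).

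Of the phosphatases, CDKN3, a dual-specificity phosphatase that removes the activating phosphate from CDK2, had the smallest adjusted p of all members. CDKN3 (chromosome 14, 54396849 to 54420218) was at 76.1, 77.95, 61.7 and 63.0 CPM in scrambled and at 13.3, 14.8 and 18.0 CPM in siGLUT2 libraries. The groups were far apart, with a fall of 4.53-fold (-2.18 ± 0.18, adjusted p = 5.49e-09). CDC25A, which removes inhibitory phosphates from CDK2, was at 47.6 ± 0.779 and 44.5 ± 2.82 CPM (-0.10 ± 0.15, adjusted p = 0.669).

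Of the p27-degrading machinery and its relatives 1 gene rose and the other two did not pass. SKP2, the F-box protein that recognises p27, was at 39.9 to 51.2 CPM and 34.6 to 47.7 CPM (adjusted p = 0.447). CKS1B, its cofactor, was at 374 to 397 CPM and 333 to 371 CPM, without overlap and without passing (-0.14 ± 0.08, adjusted p = 0.196). CKS2, the paralog that binds mitotic CDK complexes, was at 89.6, 78.2, 113 and 110.4 CPM and at 148, 157 and 124 CPM. CKS2 rose 1.47-fold with every siGLUT2 library above the scrambled range (0.55 ± 0.13, adjusted p = 0.00243).

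In the RB family RBL1 passed. RBL1 (p107, chromosome 20, 36996349 to 37095995), itself induced as cells enter S phase, was at 44.4, 55.9, 46.2 and 59.1 CPM and at 42.6, 28.2 and 35.03 CPM. The groups came close without overlap (-0.54 ± 0.17, adjusted p = 0.022), and the call did not survive leaving out scrambled replicate 2 (0.0749) or 4 (0.0885), or siGLUT2 replicate 3 (0.110). RB1, the retinoblastoma protein gene, was at 53.3 ± 7.02 and 41.8 ± 11.6 CPM (-0.35 ± 0.18, adjusted p = 0.161). Leaving out siGLUT2 replicate 2 brought RB1 past the threshold (adjusted p = 0.0457). RBL2 (p130), the family member of resting cells, was at 41.2 ± 3.35 and 33.1 ± 8.27 CPM (-0.32 ± 0.18, adjusted p = 0.209). It passed when siGLUT2 replicate 4 was left out (adjusted p = 0.0393).

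E2F1, E2F2 and E2F3 are the activators of the family. E2F2 was at 15.3, 12.95, 12.4 and 19.2 CPM in scrambled and at 4.43, 10.8 and 3.60 CPM in siGLUT2 libraries. The highest siGLUT2 library was just below the lowest scrambled library, and E2F2 fell 2.35-fold (-1.24 ± 0.36, adjusted p = 0.012). Without siGLUT2 replicate 3, the highest of its group, the change was -1.89, and without scrambled replicate 4 the call was lost (adjusted p = 0.0577). E2F1 was at 66.0 to 86.7 CPM and 52.2 to 73.5 CPM (-0.22 ± 0.15, adjusted p = 0.283). E2F3 was at 119 to 140.3 CPM and 146 to 156 CPM, without overlap and without passing (0.20 ± 0.10, adjusted p = 0.159).

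Among the repressive E2Fs, E2F6 and E2F7 rose and E2F8 fell. E2F6, which represses without binding RB proteins, was at 40.9, 27.3, 34.0 and 31.4 CPM and at 63.6, 58.6 and 59.1 CPM. It rose 1.81-fold without overlap (0.85 ± 0.16, adjusted p = 0.00032). E2F4 and E2F5, which work with RBL1 and RBL2 in resting cells, did not pass: E2F4 was at 35.03 ± 3.21 and 33.8 ± 2.94 CPM (adjusted p = 0.856) and E2F5 at 13.001 ± 3.44 and 14.9 ± 4.44 CPM (adjusted p = 0.659). The atypical repressors E2F7 and E2F8, which bind DNA without a DP partner, moved apart. E2F7 (chromosome 12, 77021247 to 77065580) was at 28.2, 32.7, 39.5 and 39.9 CPM and at 65.1, 69.6 and 87.6 CPM. It rose 2.12-fold, all siGLUT2 libraries lying above all scrambled ones (1.08 ± 0.16, adjusted p = 2.4e-05). E2F8, with 170 counts in the scrambled and 25 in the siGLUT2 libraries, was at 7.43, 3.36, 5.06 and 8.64 CPM and at 2.22, 0.721 and 1.09 CPM. Its fall (-2.18 ± 0.60, adjusted p = 0.0086) had no overlap and was lost without scrambled replicate 4 (0.0548), with the replicate block (0.0566) and with limma-voom weighted by group (0.0942), an alternative chosen after seeing the data.

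The DP partners, which form dimers with the E2Fs other than the atypical E2F7 and E2F8, were unequal. TFDP1 (chromosome 13, 113584721 to 113641470) was at 114, 101, 111 and 102 CPM in scrambled and at 39.7, 51.4 and 37.5 CPM in siGLUT2 libraries. It fell 2.49-fold with a wide gap between the groups (-1.31 ± 0.14, adjusted p = 2.18e-07). TFDP2 was at 159.6 to 184 CPM and 129.9 to 168 CPM and did not pass (-0.24 ± 0.11, adjusted p = 0.0984), although it did with siGLUT2 replicate 3 left out (adjusted p = 0.0296).

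Several members are themselves E2F target genes, so the stretches of their promoters that hold an E2F-type word are shown beside the values. RefSeq promoter windows (GRCh38.p14, 250 bases before to 50 after the start) were matched for 31 of the 38 members. CCND1, CCND2, CCNE2, CDK2, CDKN1C, E2F5 and E2F8 had no matched window, so their promoters were not searched. The matched windows were searched on both strands for TTTCCCGC, TTTCGCGC, TTTGCCGC and TTTGGCGC. A word stood in 6 of the 31 (19.4%), in 5.5% of the windows of 8778 protein-coding genes with at least 100 counts, in 3.3% of all 27305 windows and in 50.0% of the windows of 34 E2F target genes of DNA synthesis. Each stretch reads 5' to 3' on the gene's strand with the word in capitals, reverse complements included.
E2F1, chr20:33686387-33686416, minus strand: ggcaaaaaggaTTTGGCGCgtaaaagtggc
E2F2, chr1:23531257-23531286, minus strand: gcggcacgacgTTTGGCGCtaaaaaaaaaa
E2F3, chr6:20401815-20401844, plus strand: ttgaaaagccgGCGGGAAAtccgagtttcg
RBL1, chr20:37096005-37096034, minus strand: cagctgcagatTTTCGCGCgctttggcgca
TFDP1, chr13:113584622-113584651, plus strand: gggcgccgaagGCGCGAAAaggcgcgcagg
CDC25A, chr3:48188443-48188472, minus strand: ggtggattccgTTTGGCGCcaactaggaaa

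Of these 6 members, E2F2, RBL1 and TFDP1 fell, and E2F1, E2F3 and CDC25A did not pass. Lower levels were called for 34.2% of all 38 members and 14.4% of all tested genes, and 6 are too few to set against these shares. E2F1 and RBL1 held a second word in the window. A match describes the letters of the window and says nothing about binding in these cells.

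Ratios of 2 genes inside a library do not depend on how libraries are scaled, and 12 pairs of related genes were tested by exact permutation, two-sided, over the 35 assignments of 3 libraries to siGLUT2, which cannot give a p below 0.0286. The log2 ratio of CCND1 to CCND3 counts went from -1.84 ± 0.40 to 0.50 ± 0.41, so that CCND1 was counted less often than CCND3 in every scrambled library and more often in every siGLUT2 library. For CDK4 to CDK6 it went from -1.18 ± 0.12 to -3.14 ± 0.44, and for TFDP1 to TFDP2 from -0.70 ± 0.18 to -1.78 ± 0.07. The ratio of SKP2 to CDKN1B fell from 1.29 ± 0.25 to 0.26 ± 0.45, and that of CKS1B to CKS2 from 1.99 ± 0.28 to 1.29 ± 0.11. All 5 of these pairs reached the smallest exact permutation p of 0.0286 without overlap, but adjusted over the 12 pairs it was 0.0686 and did not pass. With this floor a separated pair cannot pass by itself, so passing depended on how many other pairs reached the floor too. CDK2 to CDK4, with -0.01 ± 0.19 and 0.51 ± 0.41, did not overlap either (exact permutation p = 0.0571, adjusted 0.114). The exact permutation p of CCND1 to CCND2 was 0.114 (adjusted 0.196), and that of the other 5 pairs, which include CCNE1 to CCNE2 (0.12 higher in siGLUT2), was 0.514 or more.

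**Figure D3:**
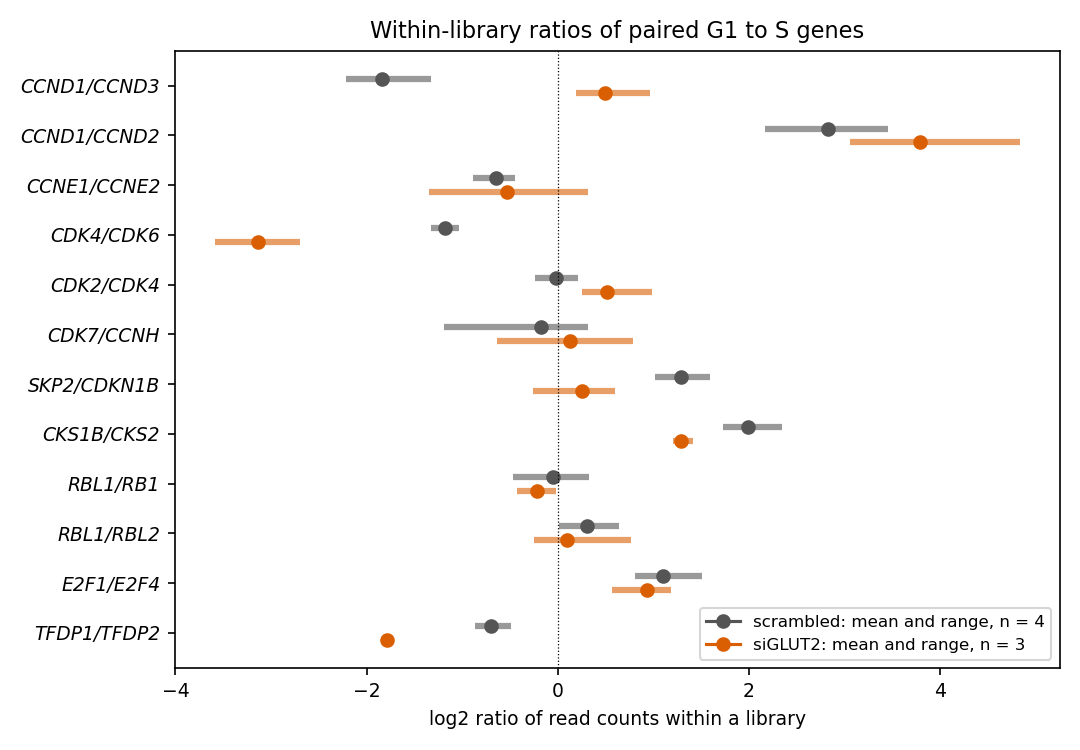
Log2 ratio of the read counts of 2 genes within a library (x axis) for 12 pairs; points are group means and bars the range over libraries (grey scrambled, orange siGLUT2). The bars do not overlap for 6 pairs, and the dotted line at 0 marks equal counts, which CCND1/CCND3 crosses from -1.84 to 0.50.

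Genes that E2F factors are known to drive in S phase were lower as well. Of 38 E2F target genes of DNA synthesis, all tested, 24 fell by edgeR (63.2%, against 14.4% of all genes), 24 by limma-voom and 23 by DESeq2. All 3 tools called 0 of them higher, and 0 were higher at an unadjusted p below 0.05 in edgeR. Their median fold change was -0.65, and their summed level was 4982 to 5124 CPM in scrambled and 3118 to 3239 CPM in siGLUT2 libraries. The replicative helicase subunits MCM5 (-1.27 ± 0.11, adjusted p = 1.35e-08) and MCM4 (-1.003 ± 0.10, adjusted p = 8.09e-08) had the smallest adjusted p, with the ribonucleotide reductase subunit RRM1 (-0.85 ± 0.08, adjusted p = 1.29e-07) and the licensing factor CDT1 (-1.07 ± 0.11, adjusted p = 3.47e-07). The other 14 genes of the list did not pass, and the highest value in the list was 0.29.

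Partners of the RB and E2F proteins in the DREAM and MYB complexes were lower where they passed. Of 7 tested genes of the MuvB core, MYBL2 and FOXM1 list, 3 fell (42.9%, against 14.4% of all genes) and 0 rose (against 13.9%): MYBL2 from 576 to 248 CPM (-1.22 ± 0.12, adjusted p = 7.89e-08), the core subunit LIN52 (-1.25 ± 0.30) and the histone chaperone RBBP4 (-0.46 ± 0.11). DESeq2 and limma-voom also called 0 of these genes higher, and 0 rose at an unadjusted p below 0.05. FOXM1, the factor of G2 and mitotic genes, was at 84.7 and 80.4 CPM (adjusted p = 0.718) and is named for its place in the list's title, not for its p. LIN37 had too few counts to be tested.

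A list of 10 genes held ubiquitin ligases of the G1 to S and mitotic switches, their regulators and a deubiquitinase. Of these, 4 fell (40%, against 14.4% of all genes) and 1 rose (10%, below the 13.9% of all genes). FBXW7, the F-box protein that marks cyclin E for destruction, rose from 56.7 to 90.8 CPM (0.68 ± 0.13, adjusted p = 0.00045). The mitotic activator CDC20 (-0.75 ± 0.12, adjusted p = 3.29e-05), the deubiquitinase USP37 (-0.93 ± 0.16) and CCNF (-0.80 ± 0.17), the F-box protein cyclin F, fell. So did FBXO5, an inhibitor of the anaphase-promoting complex named to complete the count after its values were seen (-0.71 ± 0.16).

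Of 9 tested genes among other cell cycle kinases and their regulators, 5 fell (55.6%, against 14.4% of all genes) and 1 rose (11.1%, below the 13.9% of all genes). DESeq2 called 5 of the list lower and 2 higher, as did the edgeR fit without a low-count filter, and limma-voom called 5 and 1. CCNB2 (-1.002 ± 0.14, adjusted p = 1.51e-05), CCNB1 (-0.68 ± 0.10), CDK1 (-0.62 ± 0.12) and the CDK1 inhibitory kinase PKMYT1 (-0.95 ± 0.15) were lower, as was the phosphatase CDC25B (-0.55 ± 0.14), named for the same reason. CDKN1A, which encodes the third Cip/Kip inhibitor p21 and was named after its values were seen as the 1 gene that rose, went from 15.7 to 30.8 CPM (0.97 ± 0.28, adjusted p = 0.012). Its groups overlapped, since siGLUT2 replicate 2, at 14.8 CPM, lay inside the scrambled range of 11.9 to 20.7 CPM. The call was lost without scrambled replicate 3 (0.0515) and without siGLUT2 replicate 3 (0.0812) or 4 (0.0696). Among 18 other cyclins and cyclin-dependent kinases, 5 rose (27.8%, against 13.9% of all genes) and 4 fell (22.2%, against 14.4%), with a median of 0.14. With the replicate block, or without any 1 of the 4 scrambled libraries, 3 of the 18 rose. Without siGLUT2 replicate 2 or 3 it was 4 of the 18, and without siGLUT2 replicate 4 it was 2. The number of all genes called higher moved too, from 1723 in the main fit to 1242 with the block. It was 1384 to 1502 without a scrambled library and 1815 without siGLUT2 replicate 4. The count for this list thus depended on the setting. CDK17 rose (1.32 ± 0.23, adjusted p = 0.00016), as did CCNG1, a p53 target (0.67 ± 0.14), while CDK19 (-0.83 ± 0.16) and CDK5 (-0.87 ± 0.20) fell. CDK19 is a Mediator kinase, and its paralog CDK8 was called higher close to the threshold (0.75 ± 0.28, adjusted p = 0.0482). The groups overlapped for CDK8, which was named after its values were seen.

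**Figure D4:**
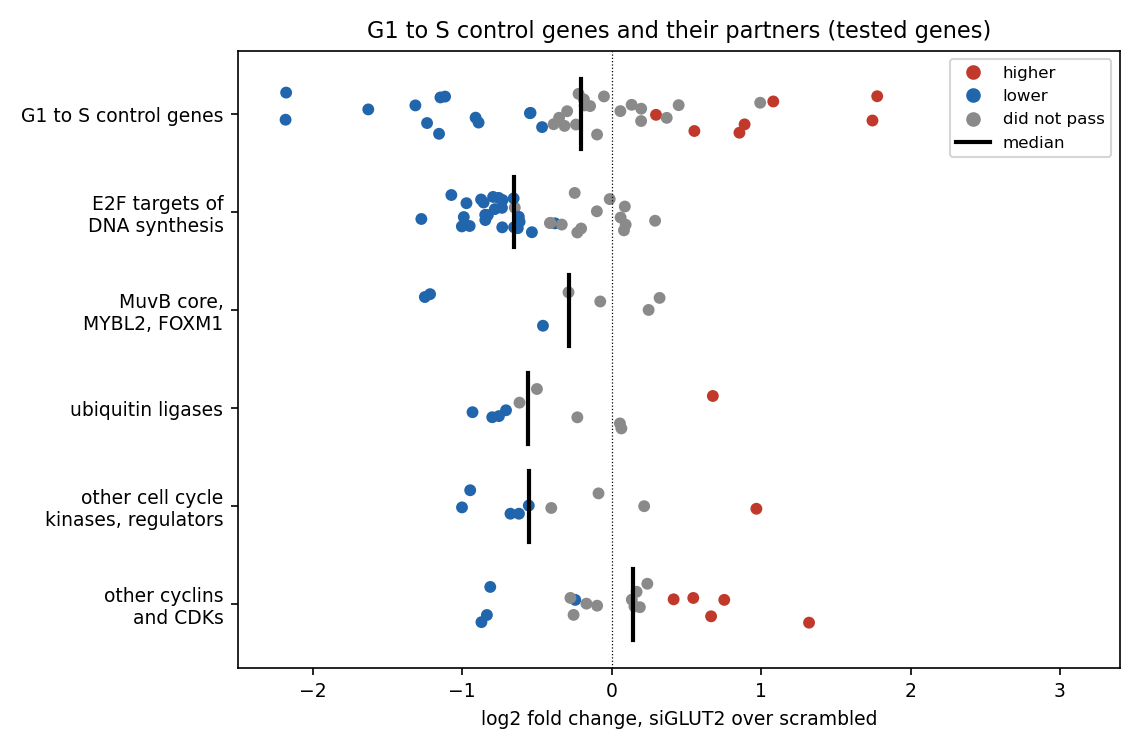
Log2 fold change (x axis) of each tested gene, a point per gene, for the G1 to S control genes and 5 lists of partner genes, with the median as a black bar; red was called higher, blue lower and grey did not pass. The E2F targets of DNA synthesis have 24 blue and 0 red points around a median of -0.65, while the other cyclins and kinases have 5 red and 4 blue points around 0.14.

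Reads of some members could include those of neighbours, since strand use in counting is not given in the sources used here. Among called members, annotated exons of CCND1 overlap LTO1 (493 counts over the 7 libraries), those of CDK4 overlap TSPAN31 (766 counts), those of CCNE2 overlap INTS8 (689 counts) and those of CDK6 overlap AC002454.1 (245 counts), each on the opposite strand. Among members that did not pass, some neighbours held more counts: C8orf59 over E2F5 4191, EXOSC9 over CCNA2 2679 and RASA1 over CCNH 2283. Others held fewer, such as AKTIP over RBL2 with 97 and CDKN2B-AS1 over CDKN2A with 33. The neighbour's total was above the member's own for E2F5 (378 counts in scrambled and 284 in siGLUT2 libraries) and for CCNH (760 and 377). Processed pseudogenes are annotated for CKS1B and E2F6, several each, and for other members that include CCND3, CDK4 and E2F3. No counts were given for these pseudogenes, and their part in the members' values was not tested. The libraries of the siGLUT2 group differed more from each other than the scrambled ones did, with a median coefficient of variation of 17.0% against 13.6% over the members, and 20.5% against 14.3% over all tested genes.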

How the data were processed

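RNA of 7 HK-2 libraries was sequenced by a digital mRNA-seq service per the labels' protocols (125 ng of total RNA, 100 cycles, single reads). The authors deposited 1 table of raw counts per Ensembl gene, in whole numbers. The submitters' processing notes name STAR, HTSeq, edgeR and hg38. Neither the annotation release nor the strand setting, nor whether molecular identifiers were used, is given in the sources used here. All 7 value columns matched a sample title, and 0 were left out.

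Counts of all genes were fitted in R 4.3.3 with edgeR 4.0.16. Genes passed filterByExpr at a minimum count of 10 and a total of at least 15, libraries were scaled by TMM, and siGLUT2 was tested against scrambled by glmQLFTest after a robust glmQLFit, with no covariate. P-values were adjusted by Benjamini-Hochberg and read at 0.05. The SE is the absolute log2 fold change over the square root of F. Gene ratios used counts plus 0.5. Alternatives were DESeq2 1.42.0, limma-voom (limma 3.58.1), other scalings and filters, thinning, a replicate block and each library left out. The scripts were tested on simulated data. Positions and 3' UTRs (50 bases or more) came from GENCODE release 29 on GRCh38, and promoters from RefSeq.

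The members, lists, pairs and words were chosen with earlier results of these data known. The rule for naming genes takes all members (with each library's value where the adjusted p is below 0.05), SLC2A2 and up to 4 genes per partner list with the smallest adjusted p. FOXM1, LIN37, FBXO5, CDC25B, CDKN1A, CDK8 and CCNA1 were named beside it.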

Additional observations from a re-analysis of the deposited data

How the results depend on the processing

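The 7 members called higher and 13 called lower were counted again under 19 other settings. Other tools, scalings, filters, thinning and non-robust estimation gave 7 and 13 each time, apart from limma-voom weighted by group quality, chosen after seeing the data, which gave 7 and 12. Leaving out a library gave 6 to 8 members called higher and 8 to 13 called lower, with the lowest count without scrambled replicate 4. Genes called over the whole table ranged from 2796 to 3778 with a library left out, around 3509. E2F target genes called lower ranged from 20 to 25. Replicate numbers 2 to 4 occur in both groups. Deviations from the group mean, over all tested genes, had correlations of 0.0095, 0.0152 and -0.0032 between same-numbered libraries. Between different-numbered libraries they ran from -0.0276 to 0.0148. Such values over all genes cannot tell whether same-numbered libraries share a batch, and this was not tested. With the replicate block 2649 genes, 7 members higher and 12 lower were called, and SLC2A2 had an adjusted p of 0.0577. The low-count filter removed SLC2A2 without scrambled replicate 1, 2 or 4, after thinning and at a minimum count of 30. No called member changed direction under these settings. Without 1 library the smallest exact permutation p of a ratio is 0.05 or 0.0667, so those ratios have values and no call. Thinning every library to the smallest total changed no member's call, including those with few counts (adjusted p of 0.00994 for E2F8, 0.0999 for CCND2 and 0.00173 for CDKN2B).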

Other observations

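CCNA1, the cyclin A gene otherwise best known from the germline, was below the count filter of the main fit and was not tested there. CCNA1 had 2, 2, 0 and 0 counts under scrambled siRNA and 28, 5 and 10 under siGLUT2, so the groups did not overlap, and siGLUT2 replicate 2 held most of the counts. It was named after its values were seen.

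Protein-coding genes whose RefSeq promoter window holds one of the E2F-type words listed above were counted over the whole table. Of 499 such tested genes, 104 (20.8%) were called lower and 44 (8.82%) higher by edgeR, with a median fold change of -0.09. Of 8595 tested genes without a word, 1287 (15%) were called lower and 1260 (14.7%) higher, with a median of 0.0061. No test was made of this difference, and the words were not searched outside the windows.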
